A study of Homo sapiens with 16 samples.

Results

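The comparison described here is the response to Thiamet-G (TMG) that human embryonic stem cells shared over 4 stages of neural differentiation. H9, an established human embryonic stem cell line, was sequenced on days 0, 12, 30 and 70 (D0, D12, D30 and D70) of a dual SMAD inhibition protocol, which blocks BMP and TGF-β signalling to direct the cells to a neural fate. At each stage 2 libraries came from cells given the solvent DMSO (control) and 2 from cells kept in 40 µM TMG in DMSO, undifferentiated cells included, and each is a biological replicate per the study's methods. All 16 of the 16 libraries of the series entered the comparison, 8 TMG against 8 control, with the stage as a block, so that 1 average effect of TMG was fitted beside the 4 stage means. The members are the genes whose difference had the same sign at all 4 stages, 6092 of the 24249 genes tested. Libraries were grouped by their titles. For 8 of them a separate treatment tag names the other arm, so the arms would be exchanged for these libraries if the tag were followed. The description of each sample and the column names of the count table have the same arm as the titles. All cells were of 1 unmodified line, so the results hold for that line.

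O-GlcNAc is a single sugar that the enzyme OGT places on serines and threonines of nuclear and cytoplasmic proteins and that the enzyme OGA removes. TMG inhibits OGA, so that the modification builds up. The donor sugar is made by the hexosamine pathway from glucose, glutamine and acetyl-CoA, which ties the modification to nutrient supply. Many chromatin proteins, transcription factors and RNA-processing factors carry it.

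Levels are given in CPM, the counts of a gene per 1e6 counts of the effective library size, and log2 fold changes are TMG over control. Library totals ranged from 10334908 to 19836878 counts, with a median of 16412980 in control and 13736716 in TMG. The stages carried their markers. POU5F1, a factor of pluripotent cells, was at 824.5 to 893 CPM on D0 and at no more than 9.13 CPM later, and PAX6, a factor of neural progenitors, was at 3.96 to 14.6 CPM on D0 and 304 to 585 CPM on D12. The D70 libraries differed most among themselves, with PAX6 from 2.50 to 587 CPM and DCX, a marker of young neurons, from 14.2 to 513 CPM. On D0, replicate 2 of control stood apart, with 23.73% of its counts in its 10 leading genes against 7.73% to 13.72% in the other D0 libraries.

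OGT, the enzyme that adds O-GlcNAc, was higher with TMG at every stage. On D0 OGT was at 403 and 424 CPM in control and at 481 and 476 CPM with TMG. On D12 it was at 489.6 and 479 CPM in control and at 634.5 and 582 CPM with TMG. The TMG libraries of both stages lay above both controls. On D30 OGT was at 434 and 414 CPM in control and 598 and 719.8 CPM with TMG. On D70 it was at 501 and 457 CPM in control and 608 and 656 CPM with TMG. The arms did not overlap at any of the 4 stages. OGT (chrX:70752937-70795742 on GRCh37) had an average log2 fold change of 0.39 (SE 0.08), which is 1.31-fold, with 0.21, 0.33, 0.64 and 0.40 at the successive stages. Its adjusted p was 0.143 by edgeR's quasi-likelihood test with Benjamini-Hochberg adjustment over all genes, so OGT was not called at a false discovery rate of 5%, while the adjusted p was 0.000123 by DESeq2 and 0.0348 by limma voom with quality weights.

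OGA, the enzyme that TMG inhibits, was higher on average at each stage, but less evenly. On D0 OGA was at 201 and 327 CPM in control and at 358 and 334.5 CPM with TMG. On D70 it was at 296 and 314 CPM in control and at 416 and 403 CPM with TMG. At these stages both TMG libraries lay above both controls. On D12 the controls had 339.8 and 316 CPM of OGA and the TMG libraries 424 and 339.8 CPM. On D30 the controls had 399.7 and 403 CPM and the TMG libraries 502 and 393 CPM. The arms met or overlapped at these stages. The average log2 fold change of OGA (chr10:103544200-103578222) was 0.30 (SE 0.10), with an adjusted p of 0.285 by edgeR, 0.109 by DESeq2 and 0.0809 by limma voom.

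**Figure D1:**
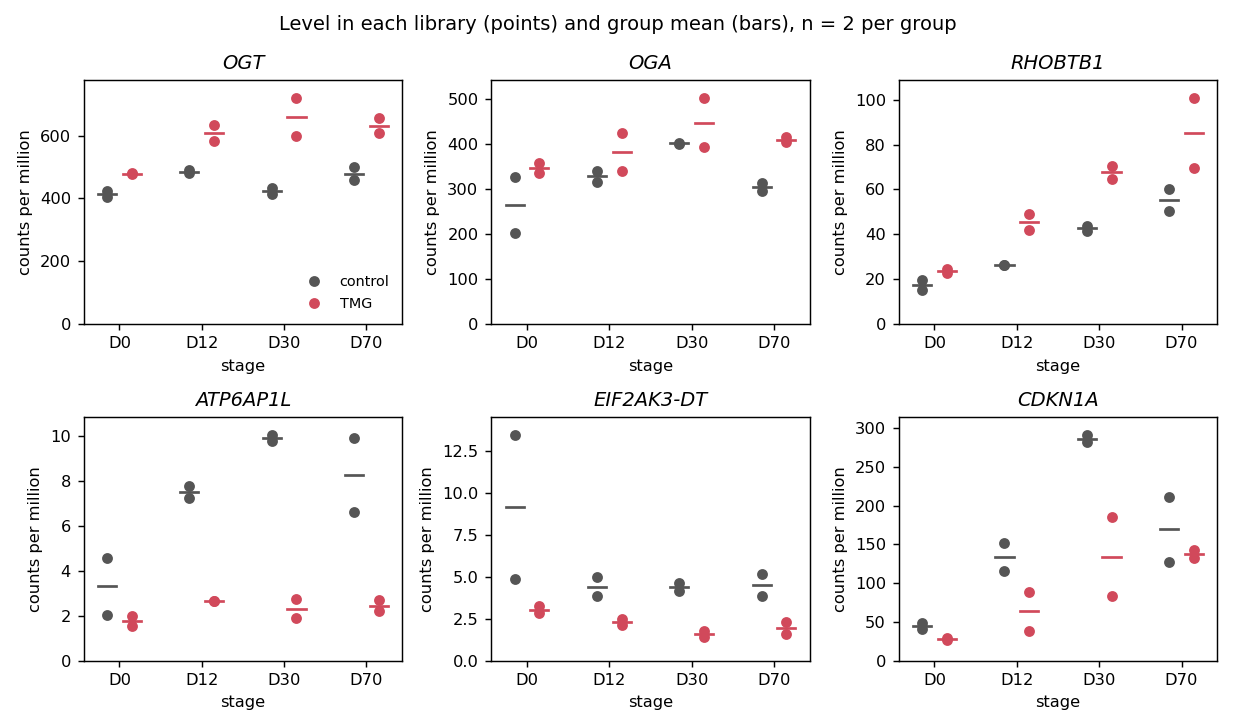
Levels in CPM (vertical axes, from 0) of 6 genes at the 4 stages; each point is a library, each short line the mean of the 2 libraries of a group, with control in grey and TMG in red. OGT and RHOBTB1 lay above both controls, and ATP6AP1L and EIF2AK3-DT below both, at all 4 stages, whereas the arms of OGA met or overlapped on D12 and D30 and those of CDKN1A overlapped on D70.

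The genes of O-GlcNAc cycling and the hexosamine pathway showed no common direction. This list and the gene lists below were chosen with earlier results of these data known, so their counts are descriptions. Of the 16 genes of that list, 3 were higher (OGT, OGA and GNPNAT1) and 1 was lower (GNPDA1) at an unadjusted p under 0.05, where the shares over all genes were 6.02% and 6.29%. OGT, OGA, GNPNAT1 and NAGK were higher at all 4 stages and 0 genes lower, against 12.1% and 13.0% of all genes. GNPNAT1, which acetylates glucosamine 6-phosphate on the way to the donor sugar, averaged 0.27 (SE 0.12) on the log2 scale and was higher at all 4 stages. GNPDA1, a deaminase that runs against the pathway, averaged -0.26 (SE 0.12), with 0.07 on D0 and -0.53 on D70. Neither was called, with an adjusted p by edgeR of 0.396 for GNPNAT1 and 0.376 for GNPDA1. The median log2 fold change of the list was -0.07, against 0.00035 over all genes tested.

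Over all genes, edgeR called 0 of 24249 (0%) at the false discovery rate of 5%, with the lowest adjusted p at 0.0944. At an unadjusted p under 0.05 there were 1459 genes higher in TMG (6.02% of those tested) and 1526 lower (6.29%). DESeq2 called 201 genes higher (0.829%) and 264 lower (1.09%), and limma voom with quality weights called 15 higher (0.0619%) and 37 lower (0.153%). Of the 52 genes that limma voom called, 48 were also called by DESeq2. The number of calls thus depended on the tool, and genes are described below by their values and by which tool called them.

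The sign was positive at all 4 stages for 2934 genes (12.1%) and negative for 3158 (13.0%). Both TMG libraries lay above both controls at all 4 stages for 107 genes (0.441%) and below both for 214 genes (0.883%). Of the 465 genes that DESeq2 called, 445 had 1 sign at all 4 stages and in 210 the arms did not overlap at any stage. For a difference between stages in the effect of TMG, edgeR called 0 genes (0%), with a lowest adjusted p of 0.834 and 582 genes at an unadjusted p under 0.05 (2.40%), and DESeq2 called 48. A count of 0 here does not show that effects were equal at the 4 stages.

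The genes described next are the 20 with the lowest p in each direction among those with 1 sign at all 4 stages. None of these 40 was called by edgeR. Its adjusted p was 0.0944 to 0.143 for the lower and 0.113 to 0.162 for the higher genes. DESeq2 called all 40, and limma voom called 14 of the 20 lower and 6 of the 20 higher genes. The arms did not overlap at any stage in 19 of the 20 lower and 15 of the 20 higher genes, a count to which the choice by p contributes. Of the lower genes 11 code for proteins, 5 are long non-coding RNAs (lncRNAs) and 4 are pseudogenes, and of the higher genes 17 code for proteins. Of all 24249 genes tested, 16177 code for proteins, 4059 are lncRNAs and 2798 pseudogenes. The median length of the annotated gene was 17908 bases for the lower and 77254 bases for the higher set, against 20065 bases over all genes tested.

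ATP6AP1L (chr5:81575281-81682796), annotated as a pseudogene related to an accessory subunit of the vacuolar proton pump, had the lowest p of all genes. On D0 it was at 4.57 and 2.03 CPM in control and at 1.99 and 1.55 CPM with TMG. On D12 it was at 7.77 and 7.23 CPM in control and at 2.65 and 2.67 CPM with TMG. The arms lay close together on D0 and far apart on D12. On D30 ATP6AP1L was at 9.77 and 10.04 CPM in control and at 2.72 and 1.89 CPM with TMG. On D70 it was at 6.62 and 9.90 CPM in control and at 2.21 and 2.68 CPM with TMG. Every control library after D0 exceeded every TMG library. The average log2 fold change of ATP6AP1L was -1.56 (SE 0.21), with an adjusted p of 0.0944 by edgeR, 5.92e-09 by DESeq2 and 0.0136 by limma voom. With 1 library left out in turn the log2 fold change of ATP6AP1L was -1.70 to -1.47. With 1 stage left out it was -1.78 to -1.39, and the adjusted p by edgeR was 0.047 to 0.831.

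The lower coding genes serve varied processes. PAN2, a subunit of a deadenylase that shortens poly(A) tails, was at 44.4 and 51.5 CPM in control on D0 and at 34.1 and 38.3 CPM with TMG. On D12 PAN2 was at 84.6 and 80.2 CPM in control and at 50.2 and 42.5 CPM with TMG. On D30 it was at 80.6 and 83.7 CPM in control and at 36.8 and 27.5 CPM with TMG, and on D70 at 82.7 and 71.6 CPM against 45.8 and 22.4 CPM. The TMG libraries lay below both controls throughout, with the narrowest gap on D0. PAN2 averaged -0.94 (SE 0.16), with -0.40, -0.83, -1.35 and -1.18 from D0 to D70.

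UVSSA, which acts in transcription-coupled DNA repair, was at 131.7 and 157.6 CPM in control on D30 and at 64.7 and 51.8 CPM with TMG. It averaged -0.69 (SE 0.13), with -0.38, -0.58, -1.31 and -0.49 from D0 to D70. The effect on UVSSA was thus deepest on D30, with an unadjusted p of 0.0199 by edgeR for a difference between stages that did not pass the adjustment. AMT, the aminomethyltransferase of the glycine cleavage system, was even over the stages, at -0.48, -0.66, -0.68 and -0.56, and averaged -0.59 (SE 0.11). PCLO, which codes for the presynaptic scaffold protein piccolo, averaged -0.51 (SE 0.09). It was at 46.9 and 42.2 CPM in control and at 25.9 and 29.8 CPM with TMG already on D0, in undifferentiated cells.

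TDRKH, a Tudor domain protein of the piRNA pathway, was at 24.8 and 17.1 CPM in control on D0 and at 16.6 and 16.9 CPM with TMG. On D30 it was at 33.9 and 30.8 CPM in control and at 9.52 and 5.49 CPM with TMG. TDRKH averaged -1.33 (SE 0.25), and its gap was small on D0 and large on D30. TRIM45, a tripartite motif protein, averaged -0.87 (SE 0.16), and ANKRD24, an ankyrin repeat protein, -1.37 (SE 0.24). CFAP68, named for cilia and flagella, averaged -0.88 (SE 0.15), and PKDREJ, a relative of polycystin, -1.18 (SE 0.21). MST1, which codes for macrophage-stimulating protein, averaged -0.85 (SE 0.15), AMZ2, a metalloprotease, -0.51 (SE 0.10), and the pseudogenes CATSPER2P1, CPSF1P1 and POLR1HASP -1.05, -0.87 and -0.60. The levels of MST1, AMZ2, CATSPER2P1 and CPSF1P1 are uncertain, since near-identical copies elsewhere can share their reads, and POLR1HASP overlaps other transcripts.

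On the higher side RHOBTB1, a GTPase-like protein with BTB domains, had the lowest p. On D0 RHOBTB1 was at 15.1 and 19.7 CPM in control and at 24.3 and 22.7 CPM with TMG. On D12 it was at 26.1 and 26.4 CPM in control and at 49.0 and 42.1 CPM with TMG. Both arms were higher on D12 than on D0. On D30 it was at 43.8 and 41.5 CPM in control and at 64.8 and 70.4 CPM with TMG, and on D70 at 59.98 and 50.2 CPM against 100.9 and 69.6 CPM. The average log2 fold change of RHOBTB1 was 0.63 (SE 0.10), with 0.43, 0.79, 0.67 and 0.63 from D0 to D70. Its adjusted p was 0.113 by edgeR, 2.76e-06 by DESeq2 and 0.0136 by limma voom.

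ANAPC7, a subunit of the anaphase-promoting complex, averaged 0.43 (SE 0.08), and CRTC3, a coactivator of CREB, 0.48 (SE 0.11). SLC25A12, the aspartate and glutamate carrier of mitochondria, averaged 0.42 (SE 0.10). All of them had arms that did not overlap at any stage. SOCS2, a feedback inhibitor of cytokine signalling, was at 20.5 and 29.2 CPM in control on D0 and at 31.97 and 30.3 CPM with TMG. On D12 it was at 2.11 and 3.39 CPM in control and at 4.68 and 4.72 CPM with TMG. On D30 it was at 5.73 and 8.48 CPM against 28.7 and 28.96 CPM, and on D70 at 9.64 and 6.68 CPM against 26.7 and 22.8 CPM. SOCS2 averaged 1.18 (SE 0.23), with a narrow gap on D0 and the widest on D30, and its unadjusted p for a difference between stages was 0.00772 by edgeR, which did not pass the adjustment.

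The higher set also held SLC6A11, SYT2, SCN8A, INSYN1, INSYN2A, NSG1 and CHRM2, and no list was tested for these names. SLC6A11, a transporter that takes up GABA, averaged 1.35 (SE 0.27), and SYT2, a calcium sensor of synaptic vesicles, 0.84 (SE 0.19). SCN8A, a voltage-gated sodium channel, averaged 0.64 (SE 0.14), although its value on D0 was 0.05. On D0 SCN8A was at 88.8 and 89.6 CPM in control and at 93.5 and 91.9 CPM with TMG, a difference of a few CPM, while on D30 it was at 18.5 and 18.1 CPM against 35.9 and 43.2 CPM. INSYN1 and INSYN2A, proteins of inhibitory synapses, averaged 0.73 (SE 0.17) and 0.68 (SE 0.13). NSG1, an endosomal protein of neurons, averaged 0.83 (SE 0.16), and CHRM2, a muscarinic acetylcholine receptor, 0.61 (SE 0.13).

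The remaining genes of the higher set have varied roles. CYP26A1, which degrades retinoic acid, averaged 1.31 (SE 0.30), from levels under 1 CPM in all control libraries after D0. KREMEN1, a Dickkopf receptor of the Wnt pathway, averaged 0.59 (SE 0.13), with 0.05 on D0 and 0.61, 0.91 and 0.73 later. EPB41L3, a membrane skeleton protein, averaged 0.61 (SE 0.13) and RASEF, a small GTPase with EF hands, 1.01 (SE 0.21). The non-coding genes CHRM3-AS2 and RP1-212P9.2 averaged 1.12 and 1.65, and the ribosomal pseudogene RPL7P1, whose reads can be shared with its parent gene, 0.66.

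Of a list of 22 neuron markers 3 were higher and 0 lower at an unadjusted p under 0.05, against 6.02% and 6.29% of all genes, and edgeR, DESeq2 and limma voom each called 0. Their summed level differed between the arms at some stages. It was 421 to 424 CPM in control and 375 to 390 CPM with TMG on D0, and 595 to 943 CPM against 873 to 1055 CPM on D12. It was 607 to 744 CPM against 964 to 1394 CPM on D30, and 888 to 1366 CPM against 489 to 1581 CPM on D70. The sum was therefore lower with TMG on D0, higher on D30, and overlapping on D12 and D70. The median over the list of log2 CPM minus the stage mean was also taken in each library. On D12 it was -0.17 and -0.26 in control and 0.09 and 0.29 with TMG. By this median TMG lay above both controls on D12 and D30, and the arms overlapped on D0 and D70. The part of neuron markers in the higher genes was not tested. In bulk RNA, a change in the number of cells of a type and a change in the RNA per cell cannot be told apart.

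**Figure D2:**
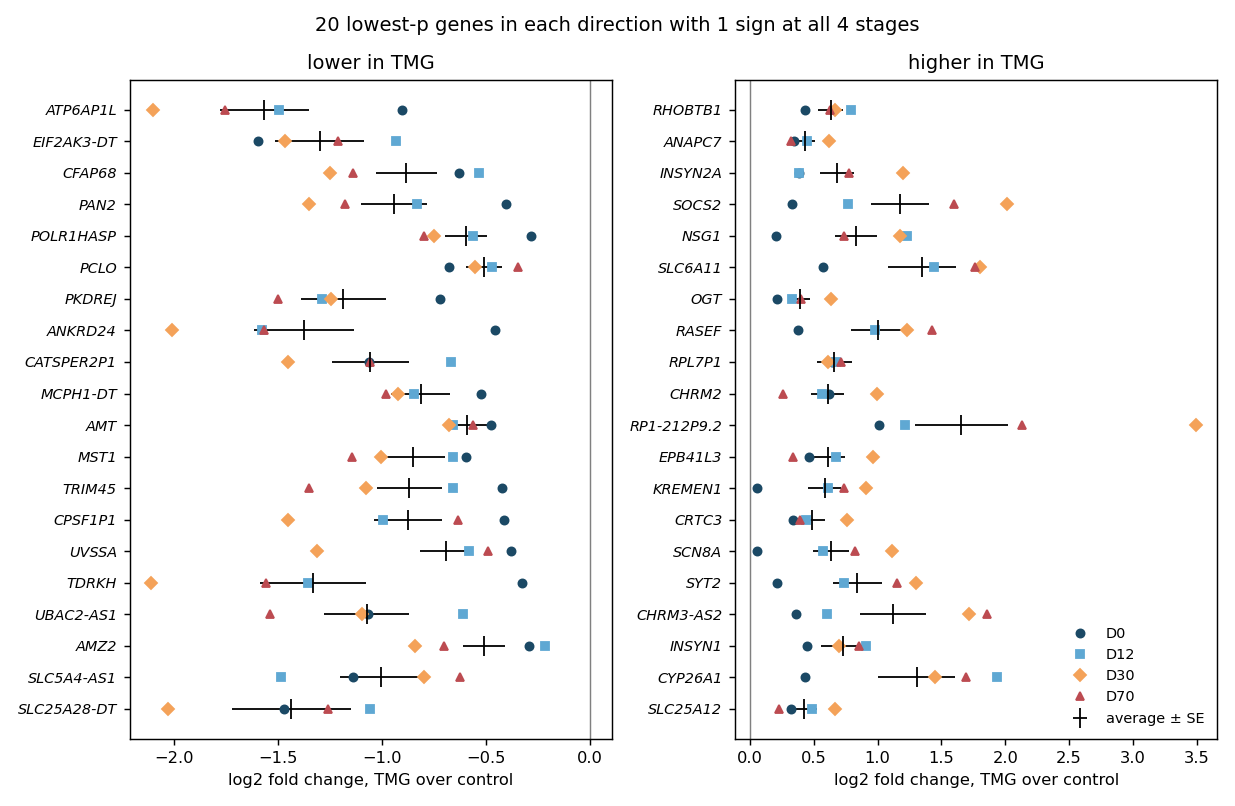
Log2 fold change of TMG over control (horizontal axes) for the 20 genes with the lowest p in each direction and 1 sign at all 4 stages; symbols mark the stages, and the black tick and line the average and its standard error. The lower genes averaged -1.56 to -0.51 and the higher genes 0.39 to 1.65, with D0 near 0 for SCN8A and KREMEN1 (0.05 each) and farther from 0 for EIF2AK3-DT (-1.59).

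The lncRNAs of the lower set are EIF2AK3-DT, MCPH1-DT, SLC25A28-DT, UBAC2-AS1 and SLC5A4-AS1, all named for a neighbouring coding gene. The ending DT stands for divergent transcript, an RNA that starts beside the promoter of a coding gene and runs the other way. Such RNAs arise at many active promoters, and most are ended early and degraded in the nucleus. Because of these names a class was defined from the GRCh37 annotation after the values were seen. A head-to-head lncRNA starts within 1000 bases upstream of the start of a coding gene, on the other strand and without overlap. There were 413 of them among the genes tested, 209 with names ending in DT, and the median distance between the starts was 127 bases.

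The sequence between the starts of 4 such pairs is shown because both genes are read outward from it. It is printed 5′ to 3′ on the strand of the coding gene (GRCh37), with capitals for CCAAT, the letters bound by NF-Y, and GGGCGG, the letters bound by Sp1, on either strand (ATTGG and CCGCCC on the other). The first 3 pairs have a lncRNA that was lower with TMG, and the last has a lncRNA that was higher together with its coding gene. They lie at chr6:166796502-166796676 (minus strand), and at chr13:96329228-96329392, chr17:46125470-46125690 and chr9:129375980-129376206 (plus strand).
MPC1-DT to MPC1: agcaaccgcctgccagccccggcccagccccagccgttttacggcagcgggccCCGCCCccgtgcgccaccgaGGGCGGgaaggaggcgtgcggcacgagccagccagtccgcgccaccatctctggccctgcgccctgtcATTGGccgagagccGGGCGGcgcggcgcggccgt
DNAJC3-DT to DNAJC3: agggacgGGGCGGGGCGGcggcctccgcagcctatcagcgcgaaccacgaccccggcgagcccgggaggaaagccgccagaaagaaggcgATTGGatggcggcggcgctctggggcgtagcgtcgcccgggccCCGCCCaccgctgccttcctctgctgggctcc
NFE2L1-DT to NFE2L1: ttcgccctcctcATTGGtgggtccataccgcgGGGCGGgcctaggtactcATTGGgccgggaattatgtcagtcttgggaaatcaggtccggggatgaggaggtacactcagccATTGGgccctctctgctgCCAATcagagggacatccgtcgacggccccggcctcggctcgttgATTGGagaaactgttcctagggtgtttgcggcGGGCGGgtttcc
LMX1B-DT to LMX1B: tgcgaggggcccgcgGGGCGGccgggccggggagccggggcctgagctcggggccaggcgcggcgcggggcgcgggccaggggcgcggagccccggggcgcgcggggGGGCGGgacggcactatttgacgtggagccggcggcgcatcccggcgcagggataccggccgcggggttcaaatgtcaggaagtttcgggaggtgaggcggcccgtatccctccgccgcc

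The 4 stretches are 165 to 227 bases long and hold 15 to 36 CG dinucleotides, and none holds TATAAA. The stretch beside NFE2L1 holds CCAAT 5 times and that beside LMX1B 0 times. Over all 413 pairs, in windows of 300 bases centred between the starts, GGGCGG was found on either strand in 75.3% and CCAAT in 35.6%. Windows of the same length at 14231 other coding genes, centred just upstream of the start, held GGGCGG in 57.9% and CCAAT in 33.8%. TATAAA was found in 4.12% of the pairs and 8.02% of the other coding genes, CACGTG in 9.69% and 8.46%, and CCGGAAG, letters bound by ETS factors, in 23.7% and 11.8%. Matches of different motifs may overlap. Between the 103 pairs whose lncRNA was lower at an unadjusted p under 0.05 and the other 310 pairs, the shares were 71.8% and 76.5% for GGGCGG, 35.0% and 35.8% for CCAAT, and 31.1% and 21.3% for CCGGAAG. The 1000 bases of genome downstream of each start were also read, on the strand of the gene. They include introns and can run past the end of a short gene, so they are not transcript sequences. AATAAA, the letters of a polyadenylation signal, was found there on 31.2% of the lncRNA sides and 16.9% of the coding sides. The lncRNA sides of the 103 lower and the 310 other pairs held AATAAA in 32.0% and 31.0%. GTAAGT was found on 15.5% of the lncRNA sides and 13.1% of the coding sides.

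The median of the head-to-head lncRNAs was lower with TMG at each stage, while most single members passed no test. Their median log2 fold change was -0.30 on average over the stages, with -0.40, -0.22, -0.17 and -0.40 from D0 to D70, against -0.03 on average for the other 3646 lncRNAs. At an unadjusted p under 0.05, 103 of the 413 (24.9%) were lower and 12 (2.91%) higher, where the shares over all genes were 6.29% and 6.02%. The sign was negative at all 4 stages for 143 (34.6%) and positive for 16 (3.87%), against 13.0% and 12.1% of all genes. Both TMG libraries lay below both controls at all 4 stages for 22 (5.33%) and above them for 0, against 0.883% and 0.441%. edgeR called 0 of the 413, DESeq2 called 31 lower and 0 higher, and limma voom 5 lower and 0 higher. Over all genes DESeq2 called 1.09% lower and 0.829% higher, and limma voom 0.153% lower and 0.0619% higher.

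By library, the arms did not overlap at any of the 4 stages. Taken as the median over the 413 genes of log2 CPM minus the mean of the stage, the controls were at -0.02 and 0.37 on D0 and the TMG libraries at -0.14 and -0.15. On D12 the controls were at 0.15 and 0.08 and the TMG libraries at -0.07 and -0.11. In both stages the TMG libraries lay below both controls, and replicate 2 of control on D0, the library that stood apart above, was far above the others. On D30 the values were 0.03 and 0.14 in control and -0.04 and -0.11 with TMG, and on D70 they were 0.13 and 0.24 against -0.01 and -0.34. Without replicate 2 of control on D0 the median of the class was -0.23, and over all libraries left out in turn it lay between -0.34 and -0.23.

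**Figure D3:**
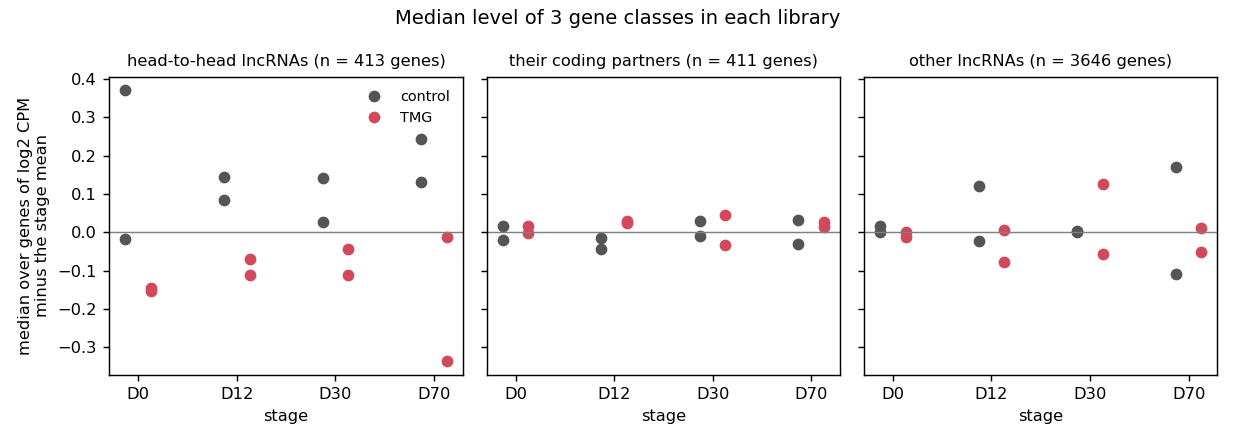
Median over the genes of a class of log2 CPM minus the mean of the stage (vertical axis) in each of the 16 libraries, by stage, with control in grey and TMG in red. For the 413 head-to-head lncRNAs both TMG libraries lay below both controls at all 4 stages, from -0.01 to -0.34, while the 411 coding partners lay between -0.04 and 0.04 and the arms of the 3646 other lncRNAs overlapped.

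The coding partners did not share the shift. In the 411 pairs with both genes tested, the median log2 fold change was -0.31 for the lncRNA and 0.02 for the partner. The lncRNA had the lower value in 315 pairs (76.6%), with a median difference of -0.30 on the log2 scale, and of -0.39, -0.26, -0.17 and -0.42 at the successive stages. In 97 pairs the lncRNA was lower at an unadjusted p under 0.05 and the partner was not, and in 6 pairs both were lower. Of the partners, 5.35% were lower and 7.30% higher at an unadjusted p under 0.05, near the shares over all genes. Across pairs the values had a correlation of 0.486, a description over genes of the same libraries that are not independent.

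**Figure D4:**
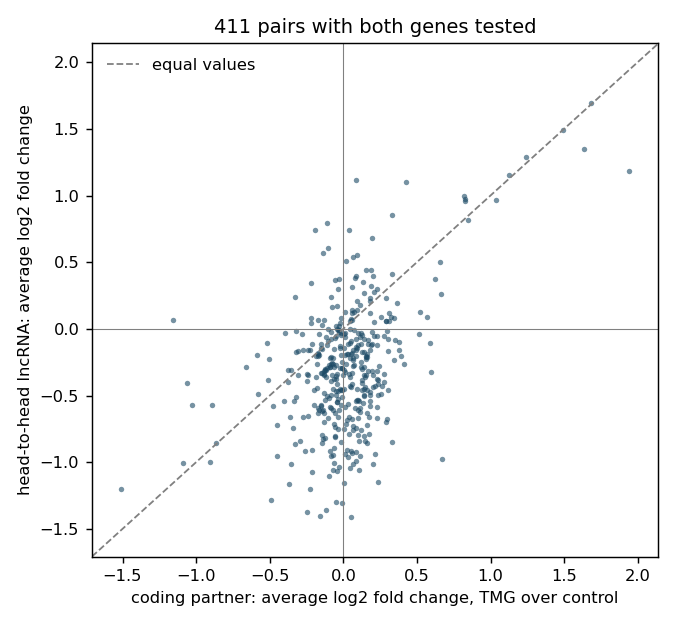
Average log2 fold change of TMG over control of the coding partner (horizontal axis) and of the head-to-head lncRNA (vertical axis); each point is 1 of 411 pairs, and the dashed line marks equal values. In 315 pairs the point lies below the line, with medians of 0.02 for the partner and -0.31 for the lncRNA.

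Single lncRNAs of the class are given next. MPC1-DT, beside the gene of a subunit of the mitochondrial pyruvate carrier, was at 3.15 and 9.09 CPM in control on D0 and at 2.88 and 2.73 CPM with TMG. On D30 it was at 1.32 and 2.06 CPM in control and at 0.583 and 0.379 CPM with TMG. MPC1-DT averaged -1.28 (SE 0.26) and its TMG libraries lay below both controls at all 4 stages, while MPC1 averaged -0.49 (SE 0.26), with -0.31, 0.56, -1.72 and -0.49 from D0 to D70. On D30 MPC1 was thus lower by about as much as MPC1-DT (-1.81). DNAJC3-DT, beside the gene of a chaperone of the endoplasmic reticulum, was at 10.24 and 8.58 CPM in control on D30 and at 3.98 and 3.31 CPM with TMG, and averaged -0.96 (SE 0.20). NFE2L1-DT, beside the gene of a transcription factor of the proteasome response, was at 7.99 and 9.18 CPM in control on D30 and at 4.95 and 3.98 CPM with TMG, and averaged -0.75 (SE 0.18). SOD1-DT (-1.36), OTULIN-DT (-1.10) and RB1-DT (-1.31) were also lower at all 4 stages. These 6 were chosen after their values were seen.

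LMX1B, a LIM homeobox factor of the dorsal neural tube and midbrain, went the other way together with its neighbour. LMX1B averaged 1.49 (SE 0.48) and LMX1B-DT 1.49 (SE 0.41), at levels of LMX1B-DT under 1 CPM in all control libraries. Of the lncRNAs in the lower set, UBAC2-AS1 (-1.07) and SLC5A4-AS1 (-1.004) belong to the class, and UBAC2, the partner of the first, averaged -0.21 (SE 0.11). MCPH1-DT (-0.81), SLC25A28-DT (-1.43) and EIF2AK3-DT do not meet the rule. EIF2AK3-DT (chr2:88927057-88931339) was at 4.88 and 13.4 CPM in control on D0 and at 3.23 and 2.83 CPM with TMG, and at 3.86 and 5.15 CPM in control on D70 and 1.58 and 2.31 CPM with TMG. It averaged -1.30 (SE 0.21) and lies within the annotated span of EIF2AK3, the gene of the stress kinase PERK, which averaged -0.51 (SE 0.24). The library kit does not keep the strand and the strand setting of the counting is not given in the sources used here, so reads of overlapping transcripts, antisense ones included, cannot be told apart.

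The shift of the head-to-head lncRNAs was compared with that of other lncRNAs of like level, base composition and length. Below 1 CPM the medians were -0.33 and -0.02, from 1 to 3 CPM -0.35 and -0.03, and from 3 CPM on -0.20 and -0.04. With a GC share under 45% they were -0.20 and 0.02, from 45 to 52% -0.36 and -0.02, and from 52% on -0.31 and -0.12. The head-to-head lncRNAs had the lower median in each of these bins. For genes under 3 kb the medians were -0.36 and -0.06, from 3 to 30 kb -0.29 and -0.01, and from 30 kb on -0.20 and -0.00237. Those with 1 exon had -0.38 against -0.09, and those with 2 or more exons -0.27 against -0.01. Lower medians than for other coding genes (0.02) were also found for the 1491 coding genes that start head to head with a coding gene, at -0.05, of which 11.1% were lower and 4.43% higher at an unadjusted p under 0.05, against 5.47% and 7.47% of the other coding genes and 6.29% and 6.02% of all genes. Over all coding genes the median went from -0.06 in the fifth with the shortest genes to 0.09 in the fifth with the longest. This spread was widest on D30, from -0.07 to 0.20, and on D70 it was from -0.04 to -0.005, with no positive median in any of these length groups. The part of RNA quality and of cell make-up in these differences was not tested.

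Of 14 genes listed as p53 targets, called damage response genes here, 11 had a negative average. The list was chosen with earlier results of these data known, so its counts are a description and not a test. Of the 14 listed, 8 were lower and 0 higher at an unadjusted p under 0.05, against 6.29% and 6.02% of all genes, and 9 were lower at all 4 stages, against 13.0%. Their median log2 fold change was -0.41 on average, with -0.28, -0.57, -0.52 and -0.10 from D0 to D70. edgeR called 0 of the 14. DESeq2 called CDKN1A and BBC3 lower, where it called 1.09% of all genes lower. By the median of the list in each library, TMG lay below both controls on D0, D12 and D30. On D12 the TMG libraries were at 0.04 and -0.68, and on D30 at 0.01 and -0.50, so that replicate 2 was the lower at both stages. The same replicate 2 libraries had the highest list medians of their stage for neural crest genes (1.14 on D12 and 1.41 on D30) and for mesenchymal genes (0.50 and 1.58), and the part of these cells was not tested. The arms overlapped on D70, at 0.10 and -0.08 in control and -0.20 and 0.12 with TMG.

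CDKN1A, which codes for the cell cycle inhibitor p21, was at 48.1 and 40.6 CPM in control on D0 and at 29.4 and 26.2 CPM with TMG. On D12 it was at 151.8 and 116 CPM in control and at 89.0 and 38.6 CPM with TMG, and on D30 at 282 and 291 CPM against 185 and 82.8 CPM. The arms were apart at these 3 stages. On D70 CDKN1A was at 211 and 127 CPM in control and at 132 and 143 CPM with TMG, and the arms overlapped. It averaged -0.79 (SE 0.21), with an adjusted p of 0.201 by edgeR, 0.0280 by DESeq2 and 0.0648 by limma voom.

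BBC3, which codes for the death inducer PUMA, averaged -0.61 (SE 0.14), with an adjusted p of 0.162 by edgeR and 0.0123 by DESeq2. FDXR, the ferredoxin reductase of mitochondria, averaged -0.57 (SE 0.17), and BAX, a pore-forming effector of cell death, -0.27 (SE 0.09). BTG2, an antiproliferative gene, averaged -0.49 (SE 0.18), ZMAT3, an RNA-binding protein, -0.47 (SE 0.18), and GDF15, a secreted stress factor, -0.98 (SE 0.38). RRM2B, a subunit of ribonucleotide reductase, averaged -0.59 (SE 0.24), and SESN1, a stress-induced sestrin, -0.22 (SE 0.13). All of these had a negative value at each stage. The other 5 genes of the list had no common sign over the stages.

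Among 16 splicing factors, several of which control their own RNA through introns, 5 were higher and 0 lower at an unadjusted p under 0.05, against 6.02% and 6.29% of all genes. SFPQ, a paraspeckle protein, was at 186 and 176 CPM in control on D30 and at 269 and 505 CPM with TMG, and averaged 0.51 (SE 0.16). SRSF3 and SRSF6, serine- and arginine-rich splicing factors, averaged 0.40 (SE 0.13) and 0.36 (SE 0.14), and HNRNPH1 and SRSF11 averaged 0.27 (SE 0.09) and 0.17 (SE 0.07). On D0 these 5 had values from 0.00164 for HNRNPH1 to 0.17 for SFPQ, so their common sign rests on D12 to D70. SRSF5, another of the list, averaged -0.15 (SE 0.08). The median of the list was 0.14, with -0.03 on D0 and 0.22, 0.14 and 0.24 later. By library the list median on D12, D30 and D70 was highest in replicate 2 of TMG, at 0.16, 0.19 and 0.23. In replicate 1 of TMG it was 0.01, 0.02 and 0.04. These replicate 2 libraries also had the highest mesenchymal list medians of their stage (0.50, 1.58 and 1.85). The part of these cells was not tested. edgeR, DESeq2 and limma voom each called 0 of the 16.

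Of 18 partners and targets of OGT, 3 were higher and 0 lower at an unadjusted p under 0.05, against 6.02% and 6.29% of all genes. At all 4 stages 6 were higher and 0 lower, against 12.1% and 13.0% of all genes, and the median was 0.14. TET3, an enzyme that oxidises 5-methylcytosine and binds OGT, was at 80.5 and 90.2 CPM in control on D0 and at 91.9 and 97.6 CPM with TMG. On D12 TET3 was at 68.1 and 75.3 CPM in control and at 100.6 and 107 CPM with TMG, and on D30 at 43.7 and 62.6 CPM against 93.1 and 152 CPM. Its arms were apart at all 4 stages, narrowly on D0, and it averaged 0.66 (SE 0.17). HDAC2, a histone deacetylase, was even over the stages, at 0.25, 0.14, 0.27 and 0.19, and averaged 0.21 (SE 0.07). DESeq2 called both, with an adjusted p of 0.0214 for TET3 and 0.0320 for HDAC2, where edgeR gave 0.185 and 0.262. Of all genes DESeq2 called 0.829% higher. CREB1, a factor that answers cyclic AMP, averaged 0.18 (SE 0.07).

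**Figure D5:**
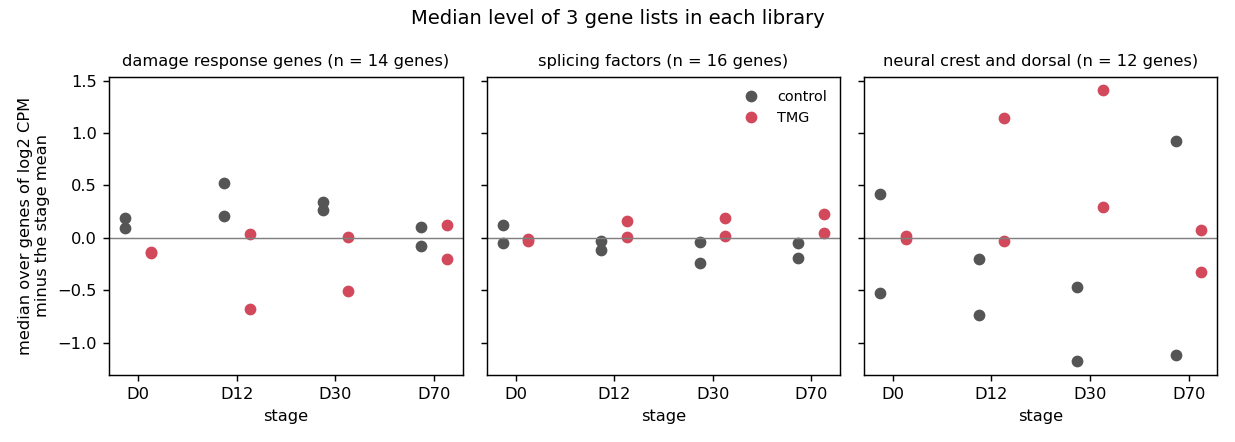
Median over the genes of a list of log2 CPM minus the mean of the stage (vertical axis) in each of the 16 libraries, by stage, with control in grey and TMG in red. With TMG the 14 damage response genes lay below both controls on D0, D12 and D30, the 16 splicing factors above both from D12 on, and the 12 neural crest and dorsal genes above both on D12 and D30.

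Genes of the neural crest and dorsal neural tube had the highest median of the lists, 0.96, but not at all stages, with -0.08, 1.18, 1.76 and 0.90 from D0 to D70. Their summed level was 182 to 271 CPM in control and 199 to 201 CPM with TMG on D0, and 798 to 1100 CPM against 1444 to 1943 CPM on D12. On D30 it was 389.7 to 649.6 CPM against 864 to 1131 CPM, and on D70 256.7 to 257.4 CPM against 547 to 606 CPM. The sums did not overlap on D70, but the list medians by library did, at -1.12 and 0.92 in control and 0.07 and -0.32 with TMG. Of the 12 genes 3 were higher and 0 lower at an unadjusted p under 0.05, against 6.02% and 6.29% of all genes, and 4 were higher at all 4 stages, against 12.1%.

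PAX3, a factor of the dorsal neural tube and neural crest, was at 217 and 299.9 CPM in control on D12 and at 362 and 375 CPM with TMG, and at 48.4 and 79.6 CPM in control on D30 and 176 and 159.5 CPM with TMG. On D70 it was at 5.85 and 9.90 CPM in control and at 149.6 and 11.5 CPM with TMG, so that 1 library set the D70 value. PAX3 averaged 1.48 (SE 0.51), or 0.83 without that library, ETS1, a factor of migrating crest cells, 0.85 (SE 0.26), and TFAP2B, a crest factor, 2.40 (SE 0.93). None of the 3 was called by edgeR, with an adjusted p of 0.289, 0.231 and 0.327, or by DESeq2. With 1 library left out in turn, ETS1 was 0.63 to 0.96 and TFAP2B 1.64 to 2.95. The 2 TMG libraries differed widely in TFAP2B, with a mean of 127.5 CPM (SD 124.3) on D12 and 40.1 CPM (SD 55.9) on D70. In ETS1 they had a mean of 131.6 CPM (SD 92.6) on D12. Of 14 mesenchymal markers, all measured, 0 were higher or lower at an unadjusted p under 0.05, against 6.02% and 6.29% of all genes. On D30 their summed level was 5125 to 6236 CPM in control and 6590 to 31770 CPM with TMG, and on D70 it was 8842 to 47740 CPM against 4899 to 62270 CPM, where the arms overlapped. On D70 PAX3 was high in replicate 1 of TMG, where the mesenchymal list median was -1.58. It was low in replicate 2, where that median was 1.85. On D30 PAX3 and the mesenchymal list median were both higher with TMG. That median was -0.98 and -0.21 in control and -0.16 and 1.58 with TMG. On D12 both were highest in replicate 2 of TMG, where the median was 0.50. The part of mesenchymal cells in the PAX3 values was not tested.

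Among 17 progenitor genes 2 (11.8%) were lower and 0 higher at an unadjusted p under 0.05, against 6.29% and 6.02% of all genes, and 4 were lower at all 4 stages (23.5%), against 13.0%. With 17 genes these shares rest on few members and are given as counts. The median of the list was -0.28, with 0.05, -0.44, -0.50 and -0.50 from D0 to D70. By the list median in each library, TMG lay below both controls on D30, and the arms overlapped on D0, D12 and D70. SOX2, a factor of stem and progenitor cells, was at 189.9 and 261 CPM in control on D0 and at 216 and 198 CPM with TMG, with overlapping arms. On D30 SOX2 was at 124 and 157 CPM in control and at 69.3 and 37.95 CPM with TMG, which lay apart. It averaged -0.77 (SE 0.24), and EMX2, a factor of the dorsal forebrain, -0.72 (SE 0.31), or -0.45 without replicate 1 of control on D70. SIX3, a factor of the anterior forebrain and eye field listed among retinal genes, averaged -1.50 (SE 0.64), with -0.05 on D0. BCL11B, a factor of deep-layer neurons, averaged 1.32 (SE 0.45), or 0.83 without replicate 2 of TMG on D30, and was higher at all 4 stages. None of these 4 was called by edgeR, DESeq2 or limma voom.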

How the data were processed

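RNA from 16 cultures was depleted of ribosomal RNA and made into libraries with a NEBNext kit. The sample labels name the Ultra kit and the study's methods the Ultra II kit. The authors aligned reads with Bowtie2 to hg19 and deposited RSEM 1.2.12 estimated counts for 57736 Ensembl genes, not normalized and as whole numbers; how they were rounded is not given in the sources used here, and a multi-mapping read can be split between copies. Of these, 14593 had no count. Positions and gene types came from a GENCODE annotation lifted to GRCh37.

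Genes were kept by filterByExpr (minimum count 10, minimum total count 15) and scaled by TMM. The average effect was tested with edgeR 4.0.16 (robust quasi-likelihood, stage plus TMG, 11 residual degrees of freedom), and differences between stages with 8 group means, at a false discovery rate of 5% (Benjamini-Hochberg). DESeq2 1.42.0, limma 3.58.1 (voom with quality weights), other normalization and filters, an average of stage-wise effects, a block by replicate number, a GC correction, and leaving out each library or stage were alternatives (R 4.3.3, Python 3.11.15). DESeq2 gave no adjusted p for 3761 genes. The quality weights of limma voom were highest for the D0 TMG libraries, at 4.114 and 4.805. They were lowest for replicate 2 of TMG on D70, at 0.1719. With 2 libraries per group, p-values of the average effect rest on the spread between these cultures. Differences of the TMG effect between stages also stay in the residual of that fit and enter its SE and p-values. Chi-square per degree of freedom between replicates was 17.84 to 105.9. Columns of log2 CPM used a prior count of 2. The study tested each stage with DESeq2; the test over stages is not its own. Scripts were tested on simulated data.

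Named genes are OGT, OGA, ATP6AP1L, the 20 with a symbol and the lowest p in each direction with 1 sign at all 4 stages (the rule asked for called genes first, and there were none), and up to 3 members of each list with the lowest p; others are said to be chosen after their values were seen, and so were BAX, BTG2, ZMAT3, GDF15, RRM2B, SESN1, SRSF5, SRSF6, SRSF11, GNPNAT1, LMX1B and the partners of lncRNAs. Members and lists were chosen with earlier results of these data known. Some genes are not reported here.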

Additional observations from a re-analysis of the deposited data

How the results depend on the processing

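No followed fold change or median changed sign under any alternative run, but the number of genes called differed between alternatives. Genes called higher were 0 in the reported fit, 201 with DESeq2, 15 with limma voom and 1 with the average of 4 stage-wise effects (ENSG00000183086). Genes called lower were 0, 264 with DESeq2, 37 with limma voom, and 1 (ATP6AP1L) with no filter on low counts or without stage D0. Genes called with 1 sign at all 4 stages were 0, 445 with DESeq2, 48 with limma voom, and 1 with no filter, the average of stage-wise effects or without stage D0. With 1 library left out in turn, 0 genes were called higher, 0 to 1 lower and 0 to 1 with 1 sign, the call being ATP6AP1L without D0 control replicate 2. Calls for a difference between stages were 0, 5 with no filter (CRISPLD2, COL9A1, TERT, ENSG00000183086 and ABCA4), 48 with DESeq2, and 0 to 77 with 1 library left out: 77 without D70 TMG replicate 1, 1 without D70 control replicate 1 (APOB) and 1 without D70 TMG replicate 2 (GFAP). These genes were named after their values were seen, and the cause was not tested. OGT was 0.41 with DESeq2 and 0.34 with limma voom, which both called it, and 0.35 to 0.42 with 1 library left out. OGA was 0.23 to 0.36 with 1 library left out.

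The median of head-to-head lncRNAs was -0.34 to -0.23 and that of the damage response genes -0.53 to -0.32 with 1 library left out. With the GC correction, for which 96.4% of genes had a value, the first was -0.28. Without D30 TMG replicate 2, SRSF6 was 0.22 and SESN1 -0.14, and without stage D30 MPC1 was -0.08, EIF2AK3 -0.18, LMX1B 0.99 and DNMT3B 0.25. These class medians, the GC correction and the distance rules were added after the data were seen.

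At each stage the log2 CPM of replicate 1 minus its group mean was correlated over genes between control and TMG. These correlations of deviations were 0.045, 0.37, 0.22 and 0.61 from D0 to D70. The replicate numbers were not taken to pair the libraries, because the labels name no shared source. The correlation was also not over 0.1 on D0, although it was at the other 3 stages. The replicate block called 0 genes higher, 0 lower and 0 for a difference between stages, with a lowest adjusted p of 0.0601 by edgeR, and OGT at 0.39. At 10334908 counts or more per library, genes under 1 CPM rest on few reads.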

Other observations

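Genes of the cell cycle had averages above 0, few of which passed a test. Of the 18 listed, 2 were higher (11.1%) and 0 lower at an unadjusted p under 0.05, against 6.02% and 6.29% of all genes, and 7 were higher (38.9%) and 0 lower at all 4 stages, against 12.1% and 13.0%. None of the 18 had a negative average. Their median log2 fold change was 0.26, with 0.14, 0.05, 0.64 and 0.27 from D0 to D70. By the median of the list in each library (log2 CPM minus the stage mean), TMG lay above both controls on D0 and D30. On D30 the controls were at -0.33 and -0.32, and the TMG libraries at -0.03 and 0.67. The higher of these was replicate 2, which also had the highest mesenchymal list median of that stage (1.58). The arms overlapped on D12, at 0.05 and -0.11 in control and -0.37 and 0.35 with TMG, and on D70, at 0.08 and -0.28 against 0.54 and -0.30. CCNE1, the cyclin of S phase entry, averaged 0.41 (SE 0.17), and was higher at all 4 stages. edgeR, DESeq2 and limma voom each called 0 of the list.

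Of 20 genes of glycolysis and glucose transport 3 were lower and 0 higher at an unadjusted p under 0.05, against 6.29% and 6.02% of all genes, with a median log2 fold change of -0.13 on average, but 0.15 on D0 and -0.73 on D70. ALDOA, the glycolytic aldolase, averaged -0.41 (SE 0.16), with 0.04 on D0 and -0.91 on D70. Of 13 genes of the hypoxia response 2 were lower at that p, against the same 6.29%. Their median was -0.23 on average, with 0.15, -0.23, -0.08 and -0.72 from D0 to D70. ADM, the vasodilator peptide adrenomedullin, was lower at all 4 stages and averaged -0.71 (SE 0.23), with an adjusted p of 0.266 by edgeR. Sterol synthesis genes had medians of 0.19, 0.20, -0.79 and 0.37 from D0 to D70.

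Immediate early genes had a median of -0.26 on average and of -0.96 on D0, the stage of the control library that stood apart, and 0.21 on D70. Of the 16 pluripotency genes 7 had a negative average, and 2 were higher and 2 lower at an unadjusted p under 0.05, against 6.02% and 6.29% of all genes. Their median was 0.25 on average over the stages, but 0.09, 0.01, 0.13 and 0 at the single stages. Their summed level on D30 was 454 to 531 CPM in control and 286 to 489 CPM with TMG, and on D70 170.2 to 214 CPM against 85.1 to 183 CPM. DNMT3B, a DNA methyltransferase of pluripotent cells, averaged 0.51 (SE 0.21). Lysosome and V-ATPase genes (-0.02), glycosidases and N-glycosylation (-0.05) and the ATF4 and ER stress response (-0.11) had medians near 0. The medians of the remaining lists went opposite ways at different stages. From D0 to D70 they were -0.15, 0.14, 0.97 and -2.12 for retinal genes and 0.13, 0.11, 0.18 and -0.91 for choroid plexus genes. For mesenchymal genes they were -0.14, 0.33, 1.44 and 0.29, and for neuronal genes -0.07, 0.39, 1.95 and -0.06. Glial genes had -0.05, 0.50, 0.62 and 0.10, genes of endoderm and other lineages -0.13, 0.94, -0.05 and -0.04, and abundant small RNAs -0.93, 0.07, -0.43 and 0.25. edgeR called 0 genes of any of these lists. In the pluripotency list DESeq2 called 0 genes and limma voom called 1 higher, where limma voom called 0.0619% of all genes higher.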
